A study of Mus musculus with 16 samples.

Results

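Poly(A)+ mRNA of the dorsal part of the lumbar spinal cord was compared between mice with spared nerve injury (SNI) and sham-operated mice, 30 days after surgery. The comparison covers 14723 of the 53465 genes in the deposited table, namely those whose reads, summed over the 4 spinal cord mRNA libraries, reached the minimum. The series holds 16 libraries. In SNI mice, the sciatic nerve was ligated and cut at its tibial and its common peroneal branch on both sides of the body, and the sural branch was spared. Sham mice underwent the same operation with the nerve untouched. All mice were female C57BL/6J and were operated on at 8 weeks of age. Each group has 2 pools of tissue from 10 mice, so n = 2 for every group value and the p-values describe the spread between pools, not between mice. The dorsal part was cut from the frozen cord along the frontal plane, and neurons, glia and vessels are measured together in it.

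The dorsal horn of the spinal cord receives the central endings of the sensory neurons whose peripheral axons run in the sciatic nerve. Cutting that nerve is known to activate microglia, the resident macrophages of the cord, and to a lesser degree astrocytes, around those endings and around the injured motor neurons. Both cell types release factors that change the excitability of dorsal horn neurons, and microglia prune synapses with the help of complement. Motor neurons, which also lose their axons in this injury, lie in the ventral horn and use acetylcholine as their transmitter.

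The libraries held 23513111 and 22181228 reads in genes for SNI and 27233473 and 22405013 for sham. Dorsal horn genes were abundant in every pool: Slc17a6, the glutamate transporter of excitatory neurons, had 308 and 304 CPM (read counts scaled to library size) after SNI and 322 and 315 CPM in sham, and Slc32a1, the transporter of inhibitory vesicles, had 323 and 327 CPM after SNI and 323 and 323 CPM in sham. Replicate pools lay close together, with a mean chi-square per gene of 1.32 between the SNI pools and 1.69 between the sham pools, where sampling noise alone gives 1, and 2.07 to 3.79 between SNI and sham pools. Part of the difference followed transcript length. When 13456 protein-coding genes were split into 5 groups by exonic length, the median log2 fold change was 0.04 in the shortest group (median 1824 bases) and -0.03 in the longest (median 10042 bases). In these groups, 127 genes were called higher and 18 lower, against 13 higher and 118 lower. The same slope separated the sham pools from each other, with Spearman's rho across genes of -0.21 between sham pool 2 and sham pool 1, -0.25 for the fitted change and -0.05 between the SNI pools. The SNI mean had this slope against both sham pools, with a rho of -0.29 against sham pool 1 and -0.13 against sham pool 2. The slope was thus steeper against sham pool 1 but not confined to it. The part of sham pool 1 in the calls was examined by leaving it out, and that of length by an offset.

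**Figure D1:**
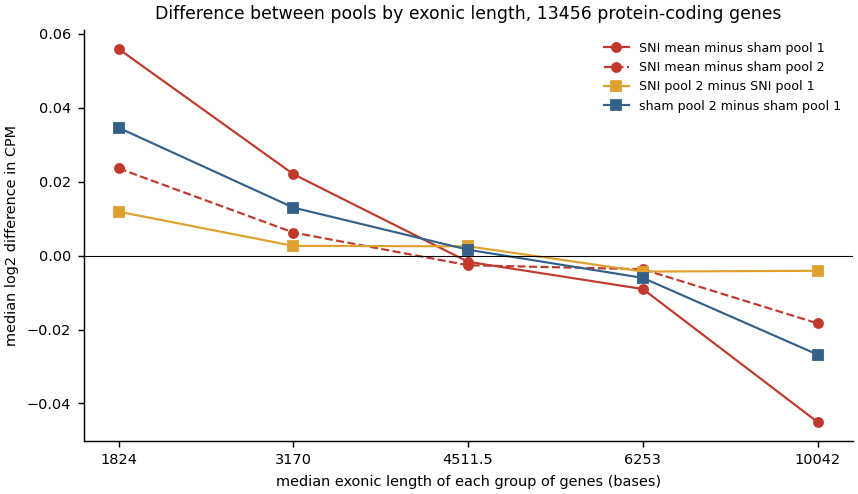
Median difference in CPM on the log2 scale (vertical axis) between pools, for 5 groups of protein-coding genes ordered by exonic length (horizontal axis, median length of each group in bases). Red lines set the mean of the SNI pools against each sham pool, and the orange and blue lines set the replicate pools of SNI and of sham against each other. The line between the sham pools runs from 0.03 in the shortest group to -0.03 in the longest. The SNI mean runs from 0.06 to -0.05 against sham pool 1 and from 0.02 to -0.02 against sham pool 2.

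Of the 14723 genes, 308 rose (2.09%) and 289 fell (1.96%) after SNI at an adjusted p under 0.05 in the quasi-likelihood test of edgeR. These shares are the background for every list count below. Most changes were small. Of the genes that rose, 99 exceeded 1.2-fold, 18 exceeded 1.5-fold and 8 exceeded 2-fold, with a median change of 0.20 on the log2 scale. Of those that fell, 44, 6 and 2 exceeded the same sizes, with a median of 0.14. In 307 of the 308 and 287 of the 289 genes both SNI pools lay beyond both sham pools, as they did in 46.3% of all genes tested. DESeq2 called 39 of the 308 genes (0.265% of all) and 18 of the 289 (0.122%), and no others. Against a 1.5-fold change as the null, 5 genes rose and 1 fell. Of the called genes, 57 that rose and 21 that fell kept their call when any of the 4 pools was left out, and 203 and 188 kept it with the length offset. Protein-coding genes made up 291 of the rises and 273 of the falls, and 6 mitochondrial tRNAs and 2 mitochondrial rRNAs were among the falls.

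**Figure D2:**
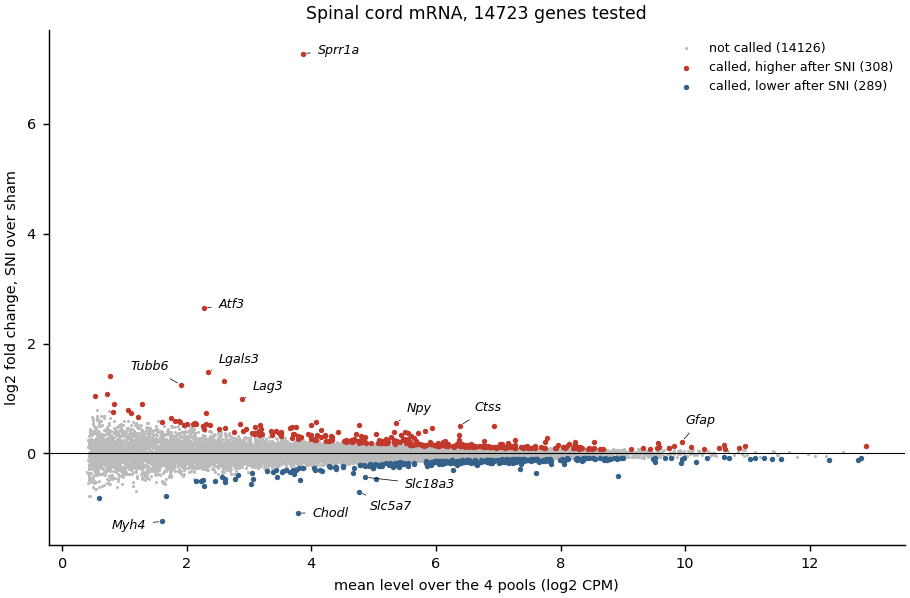
Change in mRNA level on the log2 scale, SNI over sham (vertical axis), against the mean level over the 4 pools in log2 CPM (horizontal axis) for the 14723 genes tested. Red points are the 308 genes called higher after SNI, blue points the 289 called lower and grey points the genes not called. Sprr1a at 7.28 and Atf3 at 2.65 lie above the other genes, and Myh4 and Chodl are the lowest points.

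Genes of the axon injury response gave the largest rises. Sprr1a (ENSMUSG00000050359), a small proline-rich protein that injured neurons switch on during axon growth, lies on chromosome 3 of GRCm38 from 92483952 to 92485895 on the minus strand. It had 28.7 and 29.4 CPM in the SNI pools, against 0.184 and 0.179 CPM in the sham pools. These values rest on 676 and 652 reads after SNI and 5 and 4 reads in sham, and the fitted log2 ratio was 7.28 with a standard error of 0.17 (adjusted p = 7.5e-44 from edgeR). Atf3, a transcription factor induced by nerve injury, lies on chromosome 1 from 191170296 to 191218039. It had 8.75 and 7.97 CPM after SNI and 1.29 and 1.39 CPM in sham, or 2.65 ± 0.17 on the log2 scale (standard error; adjusted p = 5.7e-20 from edgeR). Tubb6, a beta-tubulin that is scarce in the resting nervous system, had 4.80 and 5.72 CPM after SNI and 2.06 and 2.37 CPM in sham. These genes are among the 15 largest rises, a set that required non-overlapping groups, which 46.3% of all genes tested had.
The neuropeptide genes Npy and Gal also rose. Npy, which encodes neuropeptide Y of inhibitory dorsal horn neurons and of injured sensory neurons, had 46.7 and 51.3 CPM after SNI and 32.3 and 34.1 CPM in sham (log2 fold change 0.56, adjusted p = 1.7e-12 from edgeR). Gal, which encodes galanin, was chosen after its values were seen, as were the next 4 genes. It had 18.3 and 19.1 CPM after SNI and 12.6 and 13.6 CPM in sham. Gap43, the growth-associated protein of growth cones, rose by 0.20 on the log2 scale, the galectin Lgals1 by 0.35, the stress gene Gadd45a by 0.33 and the peptidase Ecel1 by 0.23. In all, 9 of 25 measured members of the list rose and none fell, where 2.09% of all genes tested rose. The median log2 fold change was 0.09, against a median of 0.00 over all genes tested. Ecel1 lost its call without SNI pool 2 (adjusted p = 0.0806), and the other 8 were called with any pool left out. The other 16 members, among them Jun at -0.00 and Sox11 at 0.08, were not called.
The cell bodies of sensory neurons lie in the dorsal root ganglion (DRG), and their markers were set beside these genes. Of 19 such markers, 11 had enough reads and none was called. Their summed level was 81.3 and 107 CPM after SNI and 89.1 and 89.2 CPM in sham, so that SNI pool 2 was the highest and SNI pool 1 the lowest. Scn10a, a sodium channel of nociceptors, had 10 and 63 reads after SNI and 24 and 27 reads in sham. With SNI pool 1 left out, 2 of the 11 were called higher and their median was 0.13. The part of sensory neuron cell bodies in the rises was not tested. In bulk tissue, more cells of a type and more RNA per cell cannot be told apart.

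**Figure D3:**
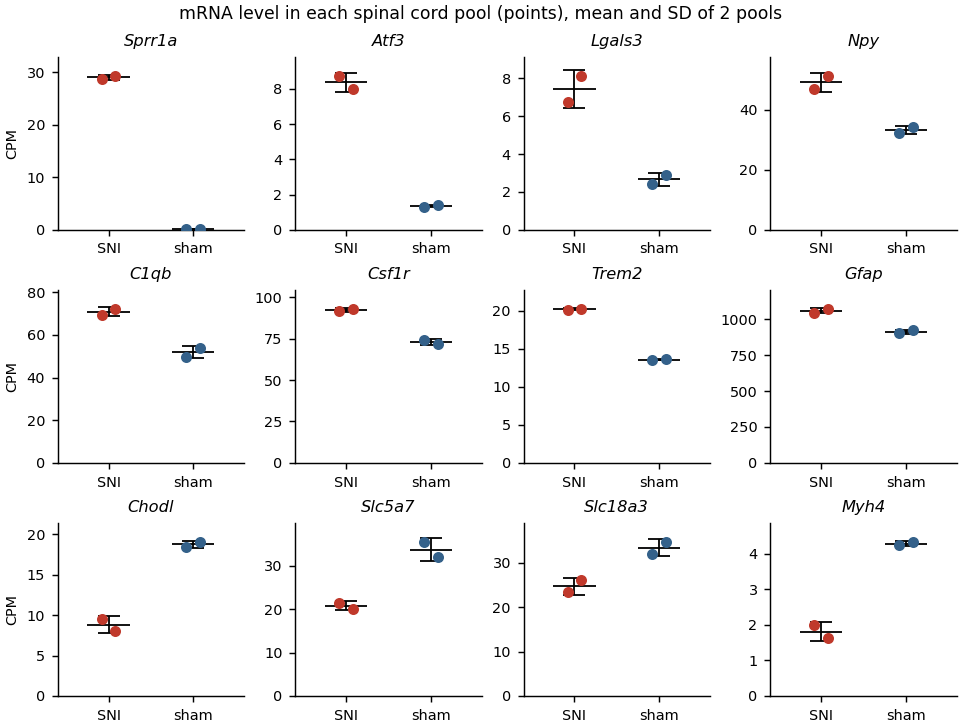
Level of 12 named genes in CPM (vertical axes, each starting at 0) in the SNI pools (red, left) and the sham pools (blue, right). Each point is 1 pool, and the horizontal bars show the mean with the SD over 2 pools. The first 8 genes were higher after SNI and the last 4 lower. The groups do not overlap in any of the 12 panels, nor in 46.3% of all genes tested. Some of the 12 were named by a rule that required groups that do not overlap.

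Sprr1a, Cryba2, Ctla2a and Trem2 are shown by their promoters because each window holds a match to TGANTCA, the pattern searched for the AP-1 site. The window of Col6a1, which is not shown, does as well. ATF3 and JUN family proteins are known to bind at AP-1 sites. RefSeq windows of 300 bases, from 250 bases before to 50 bases after the start of transcription on GRCm38, were found for 31 of the 56 named genes that rose. They were searched on both strands for the AP-1 pattern TGANTCA, in which N is any base, the cyclic AMP response element TGACGTCA and its variant TGACGCAA. N is A in the match of Trem2, and C or G in the other matches shown. The AP-1 letters were in 6 of 36 windows of these genes (16.7%), against 7.81% of all 32851 windows. Ctla2a has 2 overlapping windows with the same match, and by gene the letters were found for 5 of 31, against 2425 of 27025 genes with a window. The cyclic AMP response element was in 1 of the 36 windows (2.78%, against 1.79% of all), that of the collagen gene Col24a1, and the variant was in none of the 36 (against 0.490% of all). The window of Atf3 held none of the 3 motifs. Motif matches are given in capitals in the following sequences, 5′ to 3′ on the strand of the gene.
Sprr1a (chr3:92485832-92486131, minus strand; matches begin 146 and 116 bases before the start): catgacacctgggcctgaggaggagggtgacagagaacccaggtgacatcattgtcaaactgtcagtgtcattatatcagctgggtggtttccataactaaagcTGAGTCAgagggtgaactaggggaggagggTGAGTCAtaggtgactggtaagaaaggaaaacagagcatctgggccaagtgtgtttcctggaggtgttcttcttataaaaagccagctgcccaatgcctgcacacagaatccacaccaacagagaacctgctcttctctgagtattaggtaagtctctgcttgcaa
Cryba2 (chr1:74893094-74893393, minus strand; 59 bases before the start): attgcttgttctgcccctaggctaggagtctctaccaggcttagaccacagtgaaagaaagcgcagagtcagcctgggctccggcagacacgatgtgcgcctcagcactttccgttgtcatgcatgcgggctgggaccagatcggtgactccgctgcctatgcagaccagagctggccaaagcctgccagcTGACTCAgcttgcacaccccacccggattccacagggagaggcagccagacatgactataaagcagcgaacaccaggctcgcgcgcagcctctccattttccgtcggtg
Ctla2a (chr13:60936576-60936875, minus strand; 129 bases before the start): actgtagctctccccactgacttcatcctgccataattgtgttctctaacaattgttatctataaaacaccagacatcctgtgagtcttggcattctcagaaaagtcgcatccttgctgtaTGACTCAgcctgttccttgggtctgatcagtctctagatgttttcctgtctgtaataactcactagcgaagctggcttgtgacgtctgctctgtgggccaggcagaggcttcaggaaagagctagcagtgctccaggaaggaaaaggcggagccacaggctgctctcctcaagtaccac
Trem2 (chr17:48346151-48346450, plus strand; 9 bases before the start): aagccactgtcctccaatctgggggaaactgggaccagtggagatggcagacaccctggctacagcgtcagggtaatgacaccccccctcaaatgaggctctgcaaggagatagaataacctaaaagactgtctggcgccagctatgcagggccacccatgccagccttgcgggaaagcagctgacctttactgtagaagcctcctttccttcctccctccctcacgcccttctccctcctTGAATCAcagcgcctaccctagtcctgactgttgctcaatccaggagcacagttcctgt
Sprr1a, the gene with the largest change, was the only one of these 4 with a second match in its window. Cryba2, a lens crystallin gene, had 2.59 and 2.39 CPM after SNI and 0.956 and 0.894 CPM in sham, a log2 fold change of 1.42 (adjusted p = 5.4e-05 from edgeR, 0.0760 from DESeq2), and it had too few reads to be tested with an SNI pool left out. Ctla2a, an inhibitor of cysteine proteases, had 8.28 and 8.92 CPM after SNI and 3.35 and 3.58 CPM in sham. Its log2 fold change was 1.31, with an adjusted p of 1.4e-11 from edgeR, but it has a near-identical neighbor, Ctla2b, and its exons overlap those of 2 other annotated genes, so its reads cannot be assigned with certainty. A match is a description of the letters and not evidence of binding.

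Microglial genes rose as a broad set of small changes. Of 16 genes of resting microglia, all were measured, 9 rose and none fell, where 2.09% of all genes tested rose. The median log2 fold change of the list was 0.29. Csf1r, the receptor on which microglia depend for survival, had 91.6 and 93.1 CPM after SNI and 74.4 and 71.7 CPM in sham (log2 fold change 0.34, standard error 0.04, adjusted p = 9.3e-10 from edgeR). Trem2, a lipid receptor that triggers the reactive state, had 20.1 and 20.3 CPM after SNI and 13.5 and 13.6 CPM in sham (log2 fold change 0.57, adjusted p = 7.0e-08). Cx3cr1, the receptor for neuronal fractalkine, had 50.2 and 47.2 CPM after SNI and 38.9 and 38.0 CPM in sham. In all 3 genes the range within each group was smaller than the gap between the groups. The groups did not overlap in these genes, nor in 46.3% of all genes tested.
Other genes of this list were not called or lost their call with a pool left out. P2ry12, the purinergic receptor most used to mark resting microglia, had 22.9 and 24.3 CPM after SNI and 21.8 and 22.5 CPM in sham and did not pass (log2 fold change 0.09, adjusted p = 0.504). Tmem119, another defining marker, had 24.1 and 26.4 CPM after SNI and 21.9 and 21.8 CPM in sham, near the threshold (adjusted p = 0.0494), and was kept without SNI pool 1 and lost without each of the other 3 pools (adjusted p up to 0.558). Siglech, a sialic acid receptor, rose by 0.36 and was called with sham pool 1 left out and not with any of the others left out (adjusted p = 0.125, 0.0715 and 0.0915 without SNI pool 1, SNI pool 2 and sham pool 2). The summed level of the 16 genes was 490 and 491 CPM after SNI and 414 and 409 CPM in sham. Between 5 and 7 of the 16 rose with 1 pool left out, 4 by DESeq2 and 8 with the length offset.
Markers of activated microglia and macrophages gave 7 rises and no fall among 21 measured, where 2.09% of all genes tested rose. Lgals3, which encodes galectin-3, on chromosome 14 from 47367751 to 47386160, had 6.75 and 8.15 CPM after SNI and 2.43 and 2.91 CPM in sham (log2 fold change 1.49, standard error 0.15, adjusted p = 1.4e-11 from edgeR). Lag3, an immune checkpoint receptor that microglia also express, had 10.1 and 9.46 CPM after SNI and 4.67 and 5.27 CPM in sham (log2 fold change 0.99). Fcgr3, an activating receptor for immunoglobulin G, rose by 0.46. Cd52, a surface glycoprotein of leukocytes, rose by 0.57, a call lost without SNI pool 2 and without sham pool 2 (adjusted p = 0.304 and 0.141). These are the 4 largest called changes of the list. Lyz2 at 0.32, Apoe at 0.14 and the protease Ctsd at 0.13 also passed, and these 3 were chosen after their values were seen. Ctsd lost its call without SNI pool 2 and without sham pool 1 (adjusted p = 0.104 and 0.0640). Cd68, a lysosomal protein of phagocytes, had 6.67 and 7.88 CPM after SNI and 6.07 and 5.45 CPM in sham and did not pass (adjusted p = 0.128). Itgax, a marker of disease-associated microglia, had 12 and 15 reads after SNI and 9 and 5 reads in sham, below the minimum.

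Of 18 measured genes that link microglia to pain signaling, 6 rose and none fell, where 2.09% of all genes tested rose. The number was 3 without SNI pool 2 or sham pool 1, 5 without SNI pool 1, 6 without sham pool 2 and 1 by DESeq2. P2ry6, a receptor for uridine diphosphate that drives phagocytosis, had 3.27 and 3.06 CPM after SNI and 1.91 and 1.43 CPM in sham (log2 fold change 0.90, adjusted p = 0.00324 from edgeR). Ikzf1, a transcription factor of hematopoietic cells, had 6.07 and 6.30 CPM after SNI and 3.75 and 3.66 CPM in sham (log2 fold change 0.74, adjusted p = 3.2e-04). Ctss, a cysteine protease that microglia secrete and that releases fractalkine from neurons, was chosen after its values were seen. It had 95.5 and 101 CPM after SNI and 68.7 and 69.6 CPM in sham (log2 fold change 0.51, adjusted p = 2.3e-16), the smallest adjusted p of the microglial lists.
The kinase Lyn rose by 0.60 and the transcription factor Irf5 by 0.54, both at low levels. Lyn lost its call without SNI pool 2, sham pool 1 and sham pool 2 (adjusted p = 0.250, 0.0750 and 0.0737). Irf5 lost it without SNI pool 1, SNI pool 2 and sham pool 1 (adjusted p = 0.0658, 0.227 and 0.175). The adaptor Tyrobp, chosen after its values were seen, rose by 0.36, lost without SNI pool 2 and sham pool 1 (adjusted p = 0.0522 and 0.138). The purinergic receptors P2rx4 and P2rx7, much studied in neuropathic pain, had log2 fold changes of 0.00053 and 0.02 and were not called. Bdnf, the growth factor that microglia are thought to pass to dorsal horn neurons, had 19.7 and 18.4 CPM after SNI and 16.1 and 17.8 CPM in sham (adjusted p = 0.191). The cytokines Tnf, Il1b and Il6 had 2, 17 and 7 reads over the 4 libraries, so that no change in them was detectable at this depth.

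All 3 chains of C1q, the molecule that starts the classical complement pathway and is made by microglia, rose together. C1qb had 69.4 and 72.3 CPM after SNI and 49.8 and 53.8 CPM in sham (log2 fold change 0.46, standard error 0.04, adjusted p = 4.5e-12 from edgeR). C1qa had 61.2 and 67.2 CPM after SNI and 48.0 and 49.0 CPM in sham, and C1qc had 51.9 and 51.0 CPM after SNI and 39.6 and 39.2 CPM in sham. Cd55, which protects cells from complement, fell by 0.42, with 9.30 and 9.23 CPM after SNI and 11.99 and 12.92 CPM in sham, a call lost without SNI pool 2 (adjusted p = 0.0522). The other 10 of 14 measured complement genes were not called, and the median of the list was 0.03. Over all genes tested, 2.09% rose and 1.96% fell.
Among 13 genes of antigen presentation, 3 rose, all of the class I pathway. B2m, its light chain, had 166 and 168 CPM after SNI and 144 and 140 CPM in sham (log2 fold change 0.24, adjusted p = 7.0e-08 from edgeR). H2-K1 rose by 0.22 and H2-D1 by 0.18. These are closely similar genes whose reads may be shared, and H2-K1 lost its call without SNI pool 2 (adjusted p = 0.149). Of 21 interferon-stimulated genes, 20 had a positive change, as did 7448 of the 14723 genes tested, and 3 passed, against 2.09% of all genes called higher. These were Oasl2 at 0.47, Bst2 at 0.35 and Ifi27 at 0.22, all lost without SNI pool 2 (adjusted p = 0.230, 0.446 and 0.348) and without sham pool 1 (adjusted p = 0.129, 0.346 and 0.0812), Bst2 also without SNI pool 1 (adjusted p = 0.0510). DESeq2 called none of the 3.
Markers of blood leukocytes were scarce. Of 15 lymphocyte markers, 1 reached the minimum, and the T cell genes Cd3e, Cd3g and Cd3d had 12, 6 and 10 reads over the 4 libraries. Of the neutrophil list, S100a9 rose by 0.48, with 15.0 and 16.2 CPM after SNI and 10.7 and 11.7 CPM in sham, and S100a8 by 0.44. These genes encode the calprotectin subunits of neutrophils and monocytes. S100a8 lost its call without SNI pool 1, SNI pool 2 and sham pool 1 (adjusted p = 0.0540, 0.0616 and 0.332). Mpo and Elane, the defining granule enzymes, had 96 and 30 reads in all and did not reach the minimum. The summed level of the neutrophil list was 40.4 and 43.2 CPM after SNI and 29.9 and 33.0 CPM in sham. The erythroid list, made up of hemoglobin genes, Alas2 and Slc4a1, marks blood left in the tissue. It summed to 301 and 300 CPM after SNI and 285 and 296 CPM in sham with none called.

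**Figure D4:**
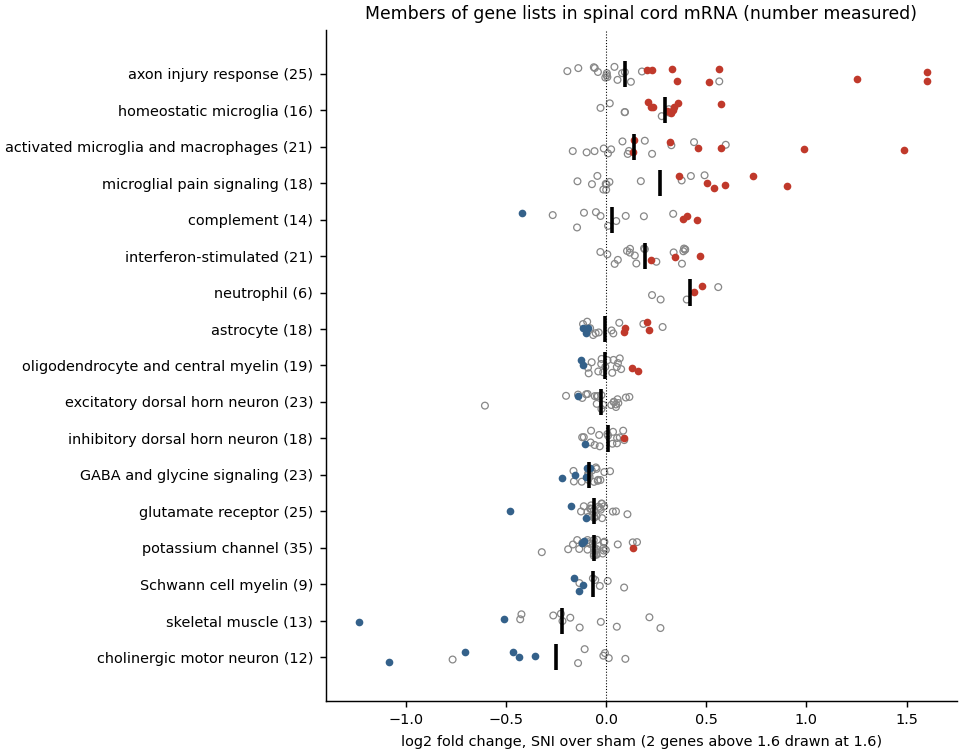
Change in mRNA level on the log2 scale, SNI over sham (horizontal axis), for the measured members of 17 gene lists. Each point is 1 gene, red where called higher, blue where called lower and open where not called, and the black bar is the median of the list. Sprr1a and Atf3 exceed the axis and are drawn at 1.6. The medians of the microglial lists lie between 0.14 and 0.29, and those of the skeletal muscle and motor neuron lists at -0.22 and -0.25.

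Astrocyte genes moved in both directions. Gfap, the intermediate filament that marks reactive astrocytes, had 1047 and 1074 CPM after SNI and 904 and 923 CPM in sham, and Vim, another filament of reactive glia, had 74.0 and 74.9 CPM after SNI and 66.1 and 62.9 CPM in sham. Both changes, 0.22 and 0.20 on the log2 scale, were called with any pool left out. Aqp4, the water channel of astrocyte endfeet, fell by 0.11 and Slc1a2, the main glutamate transporter, by 0.10. Aqp4 lost its call without either SNI pool (adjusted p = 0.0676 and 0.0829), and Slc1a2 was called only with sham pool 2 left out (adjusted p = 0.0559, 0.112 and 0.0999 without SNI pool 1, SNI pool 2 and sham pool 1) and not with the length offset (adjusted p = 0.0837). In all, 4 of 18 astrocyte genes rose and 3 fell, where 2.09% of all genes tested rose and 1.96% fell, with a median of -0.0047. DESeq2 called 1 higher, Gfap, and 1 lower, Slc1a2. Vim did not pass there (adjusted p = 0.203 from DESeq2). The list summed to 10740 and 10702 CPM after SNI and 10680 and 10634 CPM in sham.
The myelin genes of oligodendrocytes, some of them among the most abundant messages of the tissue, also split. Mbp, myelin basic protein, had 7934 and 8028 CPM after SNI and 7190 and 7388 CPM in sham, and Mobp had 1660 and 1678 CPM after SNI and 1470 and 1518 CPM in sham. Ermn, a cytoskeletal protein of mature oligodendrocytes, had 253 and 258 CPM after SNI and 276 and 280 CPM in sham, and lost its call without SNI pool 1 (adjusted p = 0.114). Of 19 measured genes of this list 2 rose and 2 fell. Bcas1, which marks oligodendrocytes that are starting to form myelin, had 318 and 327 CPM after SNI and 280 and 280 CPM in sham and was the only member of the precursor list of 12 that was called. Pdgfra, Cspg4 and Gpr17, the defining markers of precursors, had log2 fold changes of -0.08, 0.00061 and 0.05 and were not called.
Other cell types of the tissue changed little. Of 17 markers of vessels 1 fell, Vtn by 0.12, a call lost with any pool left out (adjusted p from 0.0749 to 0.429). Of 17 genes of meningeal fibroblasts and matrix 3 rose and 1 fell. These were the collagen genes Col24a1 at 0.58, Col6a1 at 0.21 and Col1a1 at 0.14, and the matrix proteoglycan Dcn at -0.16. Col1a1 lost its call without SNI pool 2 (adjusted p = 0.384), Dcn without SNI pool 1 and sham pool 1 (adjusted p = 0.114 and 0.103), Col6a1 without every pool but sham pool 2 (adjusted p = 0.0565, 0.112 and 0.0819) and Col24a1 without every pool but SNI pool 1 (adjusted p = 0.250, 0.0730 and 0.0744). None of 10 ependymal genes and none of the 2 measured adipocyte genes was called.

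Of 12 measured genes of cholinergic motor neurons, 5 fell and none rose, where 1.96% of all genes tested fell and 2.09% rose. Chodl, a marker of fast motor neurons, on chromosome 16 from 78930948 to 78951733, had 9.55 and 8.06 CPM after SNI and 18.4 and 19.1 CPM in sham (log2 fold change -1.08, standard error 0.09, adjusted p = 2.05e-15 from edgeR). Slc5a7, the transporter that takes choline back into terminals, on chromosome 17 from 54273590 to 54299034, had 21.52 and 20.04 CPM after SNI and 35.6 and 32.0 CPM in sham. Slc18a3, which loads acetylcholine into vesicles, on chromosome 14 from 32462438 to 32464850, had 23.4 and 26.1 CPM after SNI and 32.1 and 34.8 CPM in sham. All 3 were called by DESeq2, with the length offset and with any pool left out.
Slc10a4, a vesicular transporter of cholinergic and monoaminergic neurons, fell by 0.47, lost without SNI pool 2 and without sham pool 2 (adjusted p = 0.392 and 0.0793). Chat, the enzyme that makes acetylcholine, had 7.47 and 6.98 CPM after SNI and 9.38 and 9.12 CPM in sham, a call lost without SNI pool 1, SNI pool 2 and sham pool 1 (adjusted p = 0.114, 0.354 and 0.230). Slc18a3 lies within the locus of Chat on the same strand, but their annotated exons do not overlap, and sharing of reads was not tested. The median of the 12 genes was -0.25. With the length offset, 4 members were called and the median was -0.25. With 1 pool left out 3 to 4 members were called, and the median was -0.21 without SNI pool 1, -0.11 without SNI pool 2, -0.09 without sham pool 1 and -0.28 without sham pool 2. The other 7 included the peripheral neuron filament gene Prph, with 32.8 and 38.1 CPM after SNI and 32.0 and 34.4 CPM in sham, and the transcription factor Isl2, with 0.425 and 1.62 CPM after SNI and 1.802 and 1.609 CPM in sham. The list as a whole summed to 256 and 261 CPM after SNI and 293 and 293 CPM in sham.
Markers of skeletal muscle and Schwann cell myelin, tissue that is not spinal cord, were set beside the motor neuron genes. Myh4, the myosin of fast skeletal muscle fibers, had 2.00 and 1.62 CPM after SNI and 4.23 and 4.34 CPM in sham (log2 fold change -1.24, adjusted p = 2.2e-06 from edgeR). Ttn, the giant muscle protein titin, fell by 0.51, lost with the length offset (adjusted p = 0.0713) and called with sham pool 2 left out only (adjusted p = 0.115, 0.102 and 0.107 without SNI pool 1, SNI pool 2 and sham pool 1). The muscle genes Acta1 and Ckm had log2 fold changes of -0.13 and -0.22 and were not called. The 20 muscle markers summed to 53.1 and 51.5 CPM after SNI and 58.8 and 61.1 CPM in sham, and 2 of 13 measured were called. The list of Schwann cell myelin, the myelin of the nerve roots, in which 3 of 9 fell, summed to 1219 and 1234 CPM after SNI and 1338 and 1360 CPM in sham. The number that fell was 1 without either SNI pool and by DESeq2, 2 without sham pool 1 and 3 without sham pool 2. How much the extent of the cut, toward the ventral horn, the roots or muscle, bears on the fall of motor neuron genes was not tested.

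The excitatory and inhibitory marker lists of dorsal horn neurons changed little. Npy, given above with the axon injury genes and also expressed by inhibitory dorsal horn neurons, is in neither list and rose by 0.56. Of 23 measured markers of excitatory neurons 1 fell, the transcription factor gene Maf by 0.14, and its call was lost without SNI pool 2 and without sham pool 1 (adjusted p = 0.328 and 0.210). The first members, Slc17a6, Lmx1b and Tlx3, had changes of -0.06, -0.02 and -0.05 and were not called. Of 18 markers of inhibitory neurons, Penk, which encodes enkephalins, rose by 0.09 and Gad2, an enzyme that makes GABA, fell by 0.11. Penk was called only with sham pool 2 left out (adjusted p = 0.207, 0.324 and 0.294 without SNI pool 1, SNI pool 2 and sham pool 1), and Gad2 only with sham pool 1 left out (adjusted p = 0.128, 0.399 and 0.106 without SNI pool 1, SNI pool 2 and sham pool 2). The summed levels were 1606 and 1618 CPM after SNI and 1619 and 1626 CPM in sham for the excitatory list, and 2025 and 2022 CPM after SNI and 2040 and 2026 CPM in sham for the inhibitory list.
Receptor and channel genes leaned to lower values. Of 23 genes of GABA and glycine signaling, 22 had a negative change, as did 49.4% of all genes tested. In this list 5 genes fell, against 1.96% of all genes tested. Gabra2, the alpha subunit of the GABA type A receptor tied to spinal analgesia by benzodiazepines, had 76.1 and 73.3 CPM after SNI and 87.5 and 86.3 CPM in sham (log2 fold change -0.22, adjusted p = 7.4e-05 from edgeR, 0.0614 from DESeq2). Glrb, the beta subunit of the glycine receptor, fell by 0.10, and Slc6a9, the glial glycine transporter, by 0.10. Both were called with sham pool 2 left out and lost without each of the other 3 pools (adjusted p from 0.0827 to 0.370).
Of 25 glutamate receptor genes, 22 had a negative change and 3 fell, where 49.4% of all genes tested had a negative change and 1.96% fell. Grm5, a metabotropic receptor, had 125 and 117 CPM after SNI and 138 and 135 CPM in sham and lost its call without SNI pool 2 (adjusted p = 0.145). Gria2, the subunit that keeps AMPA receptors closed to calcium, fell by 0.10, lost without SNI pool 2, without sham pool 1 (adjusted p = 0.386 and 0.319) and with the length offset (adjusted p = 0.209). Grin3b, an NMDA receptor subunit of motor neurons, fell by 0.48 at a level of 4.12 and 3.87 CPM after SNI and 5.002 and 6.257 CPM in sham, and was called with sham pool 1 left out only (adjusted p = 0.114, 0.285 and 0.270 without SNI pool 1, SNI pool 2 and sham pool 2). Its exons overlap those of Tmem259.
Of 35 potassium channel genes 31 had a negative change, 2 fell and 1 rose, and of 27 sodium, calcium and HCN channel genes none was called and 20 had a negative change. Kcnj3, a subunit of inward rectifiers opened by G proteins, fell by 0.12, the delayed rectifier Kcna1 fell by 0.11 and the sodium-activated channel Kcnt1 rose by 0.13. Kcna1 and Kcnj3 were called with sham pool 2 left out and with no other pool left out (adjusted p from 0.0593 to 0.592), and Kcnt1 lost its call without either SNI pool (adjusted p = 0.0542 and 0.0765). These are long genes, with median exonic lengths of 6520 bases for the GABA and glycine list, 6721 for glutamate receptors, 5807 for potassium channels and 9862 for the last list, against 4289 over all genes tested. With the length offset, the medians of the 4 lists were -0.07, -0.03, -0.06 and 0.0044, against -0.09, -0.06, -0.06 and -0.04 without it, and 4, 2, 2 and 0 members were called. DESeq2 called no member of the 4 lists. Without SNI pool 2, 1 member of the GABA and glycine list was called and none of the other 3 lists. None of the 5 genes on the opioid list was called. Penk, an opioid peptide gene given above as called higher, is not on that list. Of 16 measured immediate early genes, which neurons switch on with activity, Egr3 fell by 0.56, with 6.71 and 6.53 CPM after SNI and 10.6 and 8.67 CPM in sham, a call lost without sham pool 1 (adjusted p = 0.145).

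Of 19 measured genes of the unfolded protein response and the ATF4 pathway, 4 fell and none rose, with a median of -0.02. Over all genes tested, 1.96% fell. Hspa5, the main chaperone of the endoplasmic reticulum, had 246 and 249 CPM after SNI and 285 and 280 CPM in sham (log2 fold change -0.19, adjusted p = 1.1e-06 from edgeR), and its call held with any pool left out, with DESeq2 and with the length offset. Xbp1, a transcription factor of the unfolded protein response, fell by 0.18, lost without SNI pool 2 (adjusted p = 0.0976). The cystine transporter Slc7a11 fell by 0.26, lost without SNI pool 2 and without sham pool 1 (adjusted p = 0.0552 and 0.101). The co-chaperone Dnajb9 fell by 0.16 and was called with sham pool 2 left out only (adjusted p from 0.0769 to 0.250 without the others). Without SNI pool 2, and likewise by DESeq2, 1 of the 19 was called. The inducible heat shock genes Hspa1b and Hspa1a, outside the list, fell by 0.59 and 0.51. They are near-identical copies between which reads cannot be assigned with certainty. The call of Hspa1b was lost without SNI pool 2 and sham pool 1 (adjusted p = 0.446 and 0.0868), and that of Hspa1a without SNI pool 1, SNI pool 2 and sham pool 2 (adjusted p = 0.0658, 0.299 and 0.140).
Of 19 genes of cholesterol synthesis, 3 fell and none rose, where 1.96% of all genes tested fell. Sc5d and Msmo1, both acting in the late steps, fell by 0.15 and 0.13 and were called with sham pool 2 left out only (adjusted p from 0.0545 to 0.334 without the others). Cyp51 fell by 0.13, lost without either SNI pool (adjusted p = 0.0722 and 0.229). Among cytoskeletal genes, the neuronal tubulin Tubb3 had 386 and 407 CPM after SNI and 331 and 353 CPM in sham (log2 fold change 0.21, adjusted p = 7.1e-08 from edgeR, 0.0741 from DESeq2). Tubb2b at 0.19 and Tuba1a at 0.10 rose, and Map1b, a long microtubule-binding protein gene, fell by 0.09. Tubb2b and Tuba1a were called with sham pool 2 left out only (adjusted p from 0.120 to 0.577 without the others) and neither was called with the length offset (adjusted p = 0.0892 and 0.184). Map1b lost its call without either SNI pool (adjusted p = 0.166 and 0.0890) and with the length offset (adjusted p = 0.200). Cdkn1a, an inhibitor of the cell cycle, had 48.8 and 47.6 CPM after SNI and 39.8 and 40.3 CPM in sham (log2 fold change 0.27, adjusted p = 1.6e-04), and no gene of proliferation on the same list was called.
Genes of mitochondrial respiration are split between the nuclear and the mitochondrial genome. Of 88 measured nuclear genes for subunits of oxidative phosphorylation, 9 rose, 79 had a positive change and none fell, with a median of 0.05. Over all 14723 genes tested, 2.09% rose and 7448 had a positive change. Cox4i1 had 793 and 800 CPM after SNI and 717 and 746 CPM in sham. These genes are short, with a median exonic length of 1613.5 bases, and with the length offset 3 members were called and the median was 0.01. With offsets for length and GC content none was called, and DESeq2 called 1. The number called was 2 without SNI pool 1, 0 without SNI pool 2, 1 without sham pool 1 and 24 without sham pool 2. Of 8 measured protein-coding genes of the mitochondrial genome, 5 fell and none rose, where 1.96% of all genes tested fell. mt-Co1 had 5036 and 4679 CPM after SNI and 5370 and 5197 CPM in sham, mt-Nd2 fell by 0.10 and mt-Nd5 by 0.09, and each of these 3 lost its call without SNI pool 2 (adjusted p = 0.363, 0.237 and 0.391). With that pool left out, and likewise by DESeq2, 1 of the 8 was called. Of 80 ribosomal protein genes 2 rose, a share near the 2.09% of all genes. These were Rplp1 at 0.12 and Rpl8 at 0.09, both lost with the length offset (adjusted p = 0.533 and 0.698) and without every pool but sham pool 2 (adjusted p from 0.147 to 0.834).

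Several of the largest changes fall outside these lists. The adaptor Sla, the costimulatory molecule Cd86 and the peptide transporter Slc15a3, all genes of myeloid cells, rose by 0.91, 0.79 and 0.76 at 1.94 to 3.01 CPM after SNI and 0.956 to 1.79 CPM in sham. Sla and Cd86 lost their calls without sham pool 1 (adjusted p = 0.402 and 0.374), and Slc15a3 without either sham pool (adjusted p = 0.161 and 0.0863). With an SNI pool left out, Sla and Slc15a3 had too few reads to be tested, as had Cd86 without SNI pool 1. The uncharacterized gene 4933407L21Rik, whose exons overlap those of Gpr55, rose by 0.73, lost without every pool but sham pool 2 (adjusted p = 0.0932, 0.195 and 0.367). Among the falls, the potassium channel Kcnj14 had 2.04 and 2.61 CPM after SNI and 3.42 and 4.65 CPM in sham (log2 fold change -0.78). Its call was lost without SNI pool 1 and sham pool 2 (adjusted p = 0.126 and 0.0831). Uts2, the peptide urotensin of motor neurons, had 3.61 and 3.69 CPM after SNI and 5.08 and 5.32 CPM in sham, and its call was lost with any pool left out (adjusted p from 0.0699 to 0.176). Mrvi1, a target of protein kinase G in smooth muscle, fell by 0.52, lost without SNI pool 1 and without sham pool 1 (adjusted p = 0.145 and 0.163).
The remaining members of the 15 largest changes in each direction were small or noncoding RNAs. The small nuclear RNA gene Gm22155 and the small nucleolar RNA gene Gm23245 rose by 0.66 and 1.05, the long noncoding RNA AC163667.1 fell by 0.81, and the mitochondrial tRNAs mt-Tl1, mt-Tl2 and mt-Tf fell by 0.49, 0.47 and 0.47. Poly(A) selection and the removal of tRNA reads by the authors act on such RNAs, so their values are not levels of the mature RNA. Of these 6, mt-Tf alone was called with any pool left out, and DESeq2 called none.
The study names 5 spinal cord genes whose mRNA and translation efficiency (ribosome footprints relative to mRNA) changed in opposite directions. It gives Scn4a, Htr3b, Sprr1a and Rtn4rl2 as higher in mRNA and Tmem54 as lower. Its test used z-scores and was not repeated here. Of these 5 genes, Sprr1a alone reached the minimum in mRNA. Scn4a, Htr3b, Rtn4rl2 and Tmem54 had 13, 27, 29 and 9 reads over the 4 libraries. Rtn4rl2, a receptor for myelin inhibitors of axon growth, had 8 and 13 reads after SNI and 3 and 5 in sham. Gpr151, a receptor of injured sensory neurons that was chosen after its values were seen, had 33 and 33 reads after SNI and 21 and 8 in sham. At these depths, changes in most of these genes were not detectable.

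Ribosome footprints, the fragments of mRNA that ribosomes protect, were sequenced from the same lysates. They share the pools with the mRNA libraries, so the values stand side by side and are not a second set of animals. Of 12018 genes with enough footprint reads, 145 rose (1.21%) and 124 fell (1.03%). Sprr1a had 44.2 and 51.6 CPM in SNI footprints and 1.11 and 0.280 CPM in sham footprints, a log2 fold change of 6.24 (adjusted p = 1.9e-15 from edgeR). Tubb6 rose by 1.72, Lgals3 by 0.96, Lag3 by 0.89 and Npy by 0.56 in footprints. Atf3 had 42 and 51 footprint reads after SNI and 6 and 13 in sham, under the minimum.
Among microglial genes, Ctss rose by 0.49, C1qb by 0.50, C1qc by 0.39, C1qa by 0.40 and Csf1r by 0.22 in footprints. Trem2, at 0.32, and Cx3cr1, at 0.17, did not pass there (adjusted p = 0.133 and 0.268). Of 15 resting microglial genes measured in footprints, 3 rose. The motor neuron genes Chodl, Slc5a7, Slc18a3 and Chat fell by 1.38, 0.76, 0.65 and 0.45 in footprints, which makes 4 of 10 measured there. Myh4 fell by 0.69. Slc10a4, at -0.37, did not pass (adjusted p = 0.300). Of the receptor and transporter genes, Glrb and Slc6a9 fell by 0.12 and 0.13 in footprints. Gabra2, at -0.21, Grm5, at -0.07, and Gria2, at -0.0021, did not pass (adjusted p = 0.0579, 0.541 and 0.990). By DESeq2, the footprint calls of Lgals3, Csf1r, Chat, Myh4, Glrb and Slc6a9 were lost (adjusted p = 0.253, 0.133, 0.945, 0.357, 0.528 and 0.218).

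**Figure D5:**
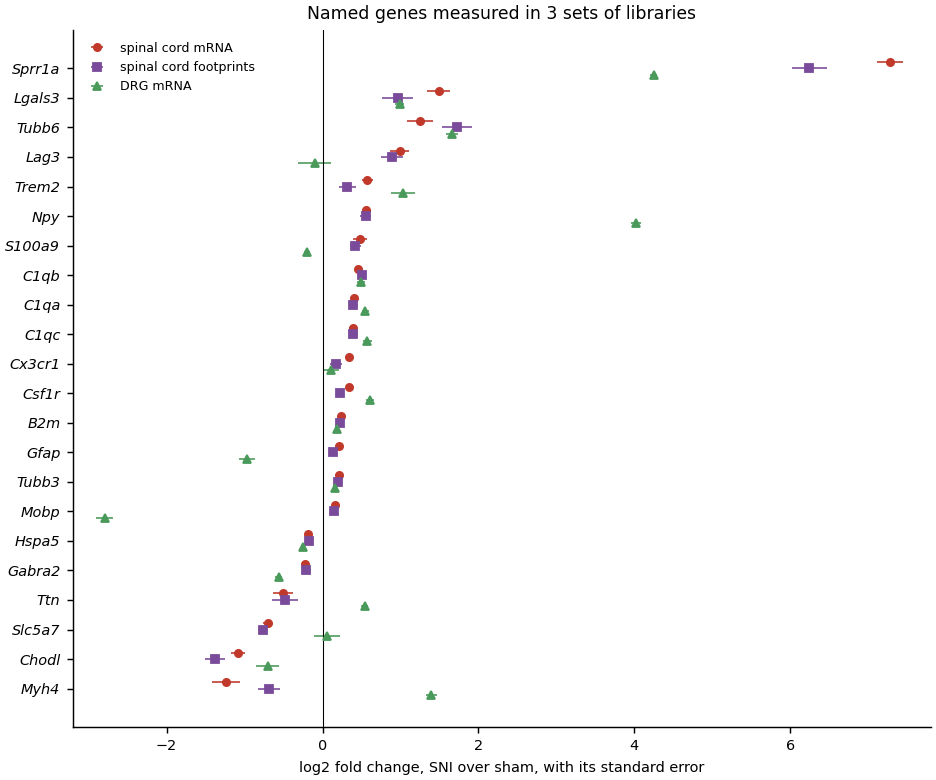
Log2 fold change, SNI over sham, with its standard error (horizontal axis) for 22 named genes in spinal cord mRNA (red circles), spinal cord footprints (purple squares) and DRG mRNA (green triangles). Npy lies at 0.56 in both spinal cord readouts and at 4.02 in the DRG, and Myh4 at -1.24 and -0.69 in the spinal cord and at 1.40 in the DRG.

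Whether the spinal cord answered differently from the DRG, where the injured sensory cell bodies lie, was tested as the interaction of tissue and surgery over the 8 mRNA libraries. Of 13557 genes tested, 2347 differed (17.3%). In the DRG alone, 2308 of 14494 genes rose (15.9%) and 2467 fell (17.0%). Of the 303 genes that rose in the cord and had enough reads in the DRG, 130 differed between tissues, 100 with the larger change in the cord. Of the 278 that fell in the cord, 133 differed, 82 with the lower change in the cord. The cord genes were called in these same cord libraries, so these counts are a description.
Sprr1a rose by 7.28 in the cord and by 4.25 in the DRG, where it had 245 and 253 CPM after SNI and 12.99 and 13.19 CPM in sham. Its level after SNI was therefore higher in the DRG, while its relative change was larger in the cord (difference 3.02, standard error 0.31, adjusted p = 2.6e-10 from edgeR). Atf3 rose by 2.88 in the DRG, and its difference of -0.25 did not pass (adjusted p = 0.472). Npy rose by 4.02 in the DRG, against 0.56 in the cord (difference -3.47, adjusted p = 5.3e-31).
Lag3 had a DRG change of -0.10 and differed from the cord by 1.08, and Ikzf1 had a DRG change of 0.08 and differed by 0.64. The C1q chains rose by 0.49 to 0.57 in the DRG and did not pass the test of the difference (adjusted p = 0.715, 0.112 and 0.0626 for C1qb, C1qa and C1qc). The difference for Csf1r was -0.28 and for Trem2 -0.47, both with the larger rise in the DRG. Gfap rose by 0.22 in the cord and fell by 0.97 in the DRG. Myh4 fell in the cord and rose by 1.40 in the DRG, as did other muscle genes, 16 of 19 of which rose in the DRG. Slc5a7 had a DRG change of 0.06 (difference -0.77, adjusted p = 0.00178) and Chodl one of -0.70 (difference -0.39, adjusted p = 0.101).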

How the data were processed

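The values were raw read counts per gene, which the authors made and deposited as 1 table for all 16 libraries. Per the labels, poly(A)+ mRNA was fragmented to 30–50 nucleotides, reads were cleared of rRNA and tRNA with Bowtie 1.1.2 and aligned with STAR 2.5.2b to GRCm38.p5, and HTSeq counted them. The strand setting is not given in the sources used here, so antisense and overlapping genes may share reads. The reads carry no molecular identifiers. Columns of RPKM and translational efficiency were not used.

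Libraries had 22181228 to 27233473 reads in genes. Genes with 128 or more reads over the 4 libraries were tested with the quasi-likelihood method of edgeR 4.0.16 (R 4.3.3), with TMM factors and Benjamini-Hochberg adjustment over all genes tested. CPM are scaled by the same factors. The standard error is the log2 fold change over the root of the F statistic. Footprints, DRG mRNA and the interaction were fitted in the same way. DESeq2 1.42.0 (without its filter on low means) and other settings served as alternatives. Length offsets per library were added after seeing the data.

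Genes named are the 15 largest changes in each direction with groups that do not overlap, up to 4 called members of each list with the largest change, the first 3 members of each cell type list and 5 genes from the study. Called genes outside this rule are marked in the text. Some genes that were not called or had too few reads, such as Jun, Bdnf and Prph, are named outside it without a mark. Some genes under the rule are not reported here. Genes and lists were chosen with earlier results of these data known. Labels call the replicates independent pools, and p-values measure only the spread between 2 pools a group.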

Additional observations from a re-analysis of the deposited data

Results flagged for a closer look

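Of the 30 genes with the largest called changes in the cord, 25 had enough reads in the DRG. For 12 of these 25 the change after SNI differed between the tissues by the interaction test of edgeR. Over all 13557 genes tested, 2347 differed (17.3%). The 30 were picked for their change in these same cord libraries, which favors a difference from the DRG, so the count is a description. The differences are given as the log2 fold change in the cord minus that in the DRG. For genes that rose in the cord they were 3.02 for Sprr1a (adjusted p = 2.6e-10), 1.37 for Gm23245 (adjusted p = 0.00140), 1.08 for Lag3 (adjusted p = 0.00129), 0.89 for Ctla2a (adjusted p = 2.2e-05), 0.64 for Ikzf1 (adjusted p = 0.0103), 0.49 for Lgals3 (adjusted p = 0.0259) and -0.79 for Gm22155 (adjusted p = 0.0119). For genes that fell in the cord they were -2.64 for Myh4 (adjusted p = 1.1e-15), -1.06 for Ttn (adjusted p = 3.5e-08), -0.77 for Slc5a7 (adjusted p = 0.00178), -0.62 for Mrvi1 (adjusted p = 0.00323) and -0.61 for Egr3 (adjusted p = 0.00604). The sham level of Sprr1a in the cord rests on 5 and 4 reads. Muscle genes rose in the DRG libraries, and Myh4 and Ttn are muscle genes.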

How the results depend on the processing

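With 2 pools a group, the number of calls depended on how the spread was estimated. Against 308 genes called higher and 289 lower, DESeq2 called 39 and 18, a fixed coefficient of variation of 0.1 called 7 and 3, and a test against 1.5-fold called 5 and 1. Offsets for length and GC content gave 205 and 181, of which 165 and 135 were among the main calls, and a fit with both tissues gave 492 genes lower. With 1 pool left out, the numbers ranged from 81 to 518 higher and from 58 to 548 lower. They were 164 and 108 without SNI pool 1, 81 and 58 without SNI pool 2, 119 and 113 without sham pool 1 and 518 and 548 without sham pool 2. The length offset alone, the newer quasi-likelihood method, library sizes alone and the other filters kept both counts within 1.5 times. Of the called genes, 263 differed from the DRG, 147 by DESeq2 and 11 with the fixed coefficient. Rpl8 had a change of -0.0032 with length and GC offsets (adjusted p = 0.974 from edgeR), and mt-Nd3 ranged from -0.34 to 0.0079 with 1 pool left out, the last without sham pool 1 (adjusted p = 0.971 from edgeR). The causes were not tested. The deviations of pools with the same number correlated at 0.0028 in mRNA. Replicate pools differed mostly by sampling noise (chi-square per gene of 1.32 for SNI and 1.69 for sham, where noise gives 1). The correlation therefore cannot decide whether the numbers pair the pools. A fit with the replicate number as a block gave 494 genes higher, 511 lower and 267 that differed from the DRG.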
